A study of Mus musculus with 12 samples.

Results

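Fgf15, a hormone gene of the gut, was examined together with 7 genes of bile acid sensing and transport in mouse colonic organoids given the vitamin D hormone calcitriol. The 8 genes were Fgf15, the receptor genes Nr1h4, Nr0b2 and Gpbar1, and the transport genes Slc10a2, Fabp6, Slc51a and Slc51b. Each was found through the accession of its probe, gave 1 probe of 55681 on the array, and 7 of the 8 were among the 24242 genes tested. Fgf15 was chosen by its measured level, which was higher with calcitriol in wild-type cultures. Its values in that comparison, and in every comparison that reuses its arrays, are given as a description with no test. The other 7 were chosen for their function. The question was whether the rest of the bile acid genes moved where Fgf15 did.

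The organoids were crypt cultures grown in Matrigel from 3 wild-type and 3 VDR KO mice of strain C57BL/6, and each mouse's culture was divided between the hormone and its solvent. The 4 groups of 3 arrays were wild type with calcitriol (1,25(OH)2D3) at 100 nM, wild type with ethanol (EtOH) vehicle, knockout with calcitriol at 100 nM and knockout with vehicle. Treatment was renewed every 48 h, and its length is uncertain, since the design text gives 72 h and the sample descriptions give 62 h. The mice were 2 months old for replicates 1 and 3 and 3 months old for replicate 2, and the labels do not say how the Vdr gene was inactivated. RNA from 100 ng per sample was labelled with 1 dye on Agilent arrays. A level below is the log2 processed spot intensity with the array's 75th percentile set at 0, so that a difference of 1 is a 2-fold change.

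Bile acids are made from cholesterol in the liver and are recovered in the last stretch of the small intestine, the ileum. There the apical transporter ASBT (Slc10a2) takes them up, the ileal bile acid-binding protein (Fabp6) carries them through the cell, and the paired exporter OSTα and OSTβ (Slc51a and Slc51b) releases them to the blood. Inside the cell they activate the nuclear receptor FXR (Nr1h4), which switches on Fabp6, both exporter genes, the repressor SHP (Nr0b2) and Fgf15. FGF15 travels to the liver, where it binds FGFR4 with the co-receptor β-Klotho and lowers the synthesis enzyme CYP7A1. TGR5 (Gpbar1) is a bile acid receptor of the cell membrane. Fgf15 is also known as a gene that vitamin D can raise in the gut.

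FXR is known to bind an inverted repeat of a short half-site with 1 base in the middle, called IR1. The letters GGTNANTNACC, which read the same on both strands, were looked for in the 250 bases before each start in a RefSeq promoter table on GRCm38.p6, where 7 of the 8 members matched, all but Fgf15. They occurred in 72 of 32851 promoter windows (0.219%), and in 2 of the 7 member windows, those of Fabp6 and Slc51b. The letters were chosen with the known FXR site in mind and after the members were known, and a match is a description of the sequence only. The 2 windows that hold the letters are shown with the match in capitals, followed by the window of Slc51a, the partner of Slc51b in the exporter, which has none. The Fabp6 window lies at chr11:43601563-43601812, the Slc51b window at chr9:65422774-65423023 and the Slc51a window at chr16:32487880-32488129, all 3 on the minus strand and written 5′ to 3′.
Fabp6: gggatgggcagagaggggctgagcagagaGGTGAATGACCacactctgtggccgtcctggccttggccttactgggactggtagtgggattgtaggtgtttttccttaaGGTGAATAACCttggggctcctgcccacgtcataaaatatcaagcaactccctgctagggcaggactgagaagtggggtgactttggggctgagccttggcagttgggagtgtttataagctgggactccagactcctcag
Slc51b: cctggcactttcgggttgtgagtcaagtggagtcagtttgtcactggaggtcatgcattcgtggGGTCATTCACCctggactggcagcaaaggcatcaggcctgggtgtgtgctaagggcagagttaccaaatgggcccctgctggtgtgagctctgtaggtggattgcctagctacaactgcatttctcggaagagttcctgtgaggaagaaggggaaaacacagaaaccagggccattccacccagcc
Slc51a: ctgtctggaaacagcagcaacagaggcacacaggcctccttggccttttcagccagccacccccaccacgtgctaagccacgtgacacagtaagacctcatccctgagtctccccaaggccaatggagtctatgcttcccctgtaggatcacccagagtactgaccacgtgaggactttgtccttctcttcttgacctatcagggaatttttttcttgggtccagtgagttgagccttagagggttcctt

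The Fabp6 window held the repeat at 2 places, 221 to 211 and 141 to 131 bases before the start. The Slc51b window held it once, 186 to 176 bases before the start. The direct repeat GGTCANNNNGGTCA, searched on both strands as a form of the vitamin D receptor's DR3 element, occurred in 15 of the 32851 windows (0.0457%) and in none of the 7 member windows, which do not include Fgf15. The single half-site AGGTCA, on either strand, occurred in 4607 windows (14%) and in 3 member windows, those of Slc51b, Nr1h4 and Slc51a. These are statements about the 250 bases alone.

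The arrays were alike in brightness, with a 75th percentile of 580.0 to 791.4 signal units. The share of spots well above background was 55.0% to 66.4% on 11 arrays and 72.8% on the vehicle array of wild-type mouse 2, whose median signal was 89.8 against 24.7 to 56.9 on the others. That array stands apart at low signal, so the wild-type differences of the dim genes Nr0b2, Fabp6, Slc51a and Slc51b are given with and without it. The arrays lay on 3 slides. The largest slide held 7 arrays, among them all 3 of wild type with calcitriol but only the vehicle arrays of mouse 3 in each genotype, so slide and treatment overlap in wild type. Another slide held only the knockout vehicle arrays of mice 1 and 2. The remaining slide held the wild-type vehicle arrays of mice 1 and 2 and the knockout calcitriol array of mouse 3. Slide therefore also overlaps with treatment in knockout and with genotype in vehicle. All 18 colonocyte markers were above background on all 12 arrays. Of 20 markers of the small intestinal enterocyte, 11 were above background on all 12 arrays, while Apoa1, Enpep and Slc2a2 were on none. Vdr itself was lower in knockout by 1.60 on the log2 scale in vehicle (limma adjusted p = 0.322, or 0.0279 once replicate number is a block) and by 1.11 in calcitriol (0.257, or 0.0466 once it is a block). The blocked calls of Vdr ended without replicate 1 (0.194 in vehicle and 0.228 in calcitriol) and, in calcitriol, without replicate 2 (0.110), and neither difference passed with slide as a block (0.487 and 0.578).

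Fgf15 was high in the wild-type cultures with calcitriol and low in all others. Its level was 2.06, 2.16 and 1.32 in wild type with calcitriol (mice 1, 2 and 3), against -1.29, -1.71 and -2.82 in wild type with vehicle. In knockout it was -1.70, -1.01 and -1.98 with calcitriol, against -1.68, -0.50 and -2.27 with vehicle. The 3 wild-type calcitriol arrays stood above the other 9, whose levels ran between -2.82 and -0.50 with a median of -1.70, and a gap of 1.82 separated the lowest of the 3 from the highest of the 9. The Fgf15 spot exceeded background on every one of the 12 arrays, so the low groups hold a measured signal, with processed intensities of 1947 to 3304 in wild-type calcitriol and 109.4 to 237.8 in wild-type vehicle.

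Within each wild-type mouse the calcitriol culture exceeded the vehicle culture, by 10.2-fold in mouse 1, 14.6-fold in mouse 2 and 17.6-fold in mouse 3. The mean difference was 3.79 ± 0.40 on the log2 scale (SD of 3 mice), or 13.8-fold. Only mouse 3 had both arrays on 1 slide, and its difference of 4.14 was the greatest of the 3. Group means were 1.85 ± 0.46 in wild type with calcitriol and -1.94 ± 0.79 in wild type with vehicle, and -1.56 ± 0.50 in knockout with calcitriol and -1.48 ± 0.90 in knockout with vehicle (SD, n = 3 each). These values chose the gene, and no p is given for them.

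**Figure D1:**
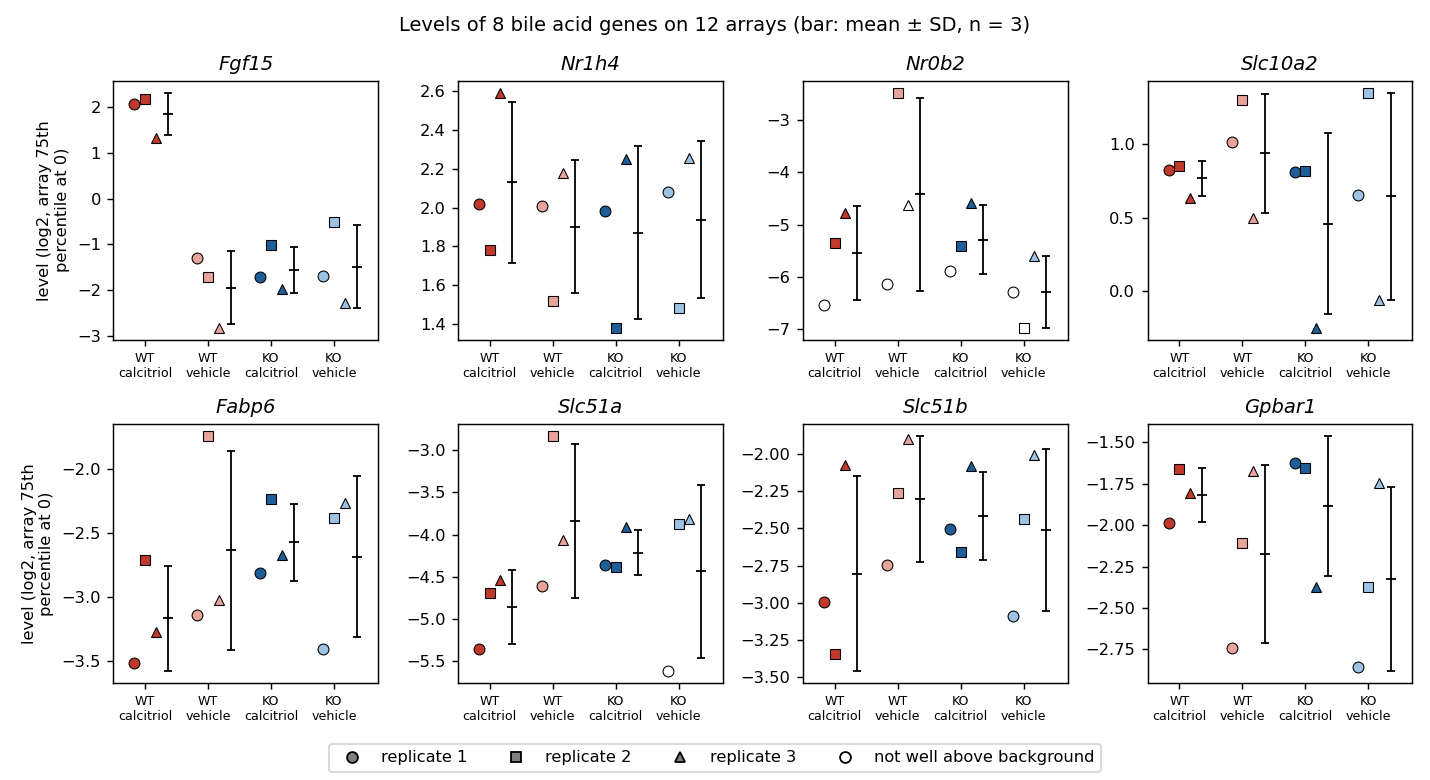
Level of each of the 8 bile acid genes on every array (log2, the array's 75th percentile at 0), by group, with the replicate number as the marker shape and a bar for the mean ± SD of 3 arrays. Open markers were not well above background; the Fgf15 levels of wild-type calcitriol (1.32 to 2.16) lie above the other 9 arrays, and no other gene shows such a separation.

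In knockout organoids, which did not choose the gene, Fgf15 did not pass. The calcitriol minus vehicle difference was -0.02, -0.51 and 0.29 in knockout mice 1, 2 and 3, a mean of -0.08 (SE 0.48, 95% interval -1.13 to 0.97, limma adjusted p = 1.00). This interval covers changes between 0.457-fold and 1.96-fold. limma called 0 of 24242 genes in this comparison (0%), with 1400 at unadjusted p under 0.05, and the fit with mouse as a block also called 0. The count over all genes was 149 without replicate 3, and 0 without replicate 1 or 2 or any 1 array. The small difference was 0.59 when slide was a term of the fit (limma adjusted p = 0.999) and 0.91 among the arrays of the largest slide. On that slide the knockout calcitriol arrays came from mice 1 and 2, and the only knockout vehicle array came from mouse 3. Slide and mouse therefore cannot be told apart in this change of sign.

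Without the hormone, the Fgf15 levels of the genotypes overlapped. The level was -1.48 ± 0.90 in knockout vehicle against -1.94 ± 0.79 in wild-type vehicle (SD, n = 3 each), a difference of 0.45 (SE 0.48). The wild-type vehicle arrays were part of the comparison that chose the gene, so this difference is a description with no test. Of 24242 genes 1 was called in this comparison (0.00413%). Slide overlaps with genotype here, and the Fgf15 difference was -0.10 with slide as a block. With calcitriol the knockout arrays lay below the wild-type arrays without overlap, at -1.98 to -1.01 against 1.32 to 2.16. This last comparison reuses the wild-type calcitriol arrays and is a description.

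The receptor genes of the set showed no such step. Nr1h4, which encodes FXR, had levels of 2.02, 1.78 and 2.59 in wild type with calcitriol, against 2.01, 1.52 and 2.18 with vehicle. In knockout they were 1.98, 1.38 and 2.25 with calcitriol, against 2.08, 1.48 and 2.25 with vehicle. The groups overlapped almost fully, and the probe was bright on all 12 arrays, with intensities from 1640 to 4686. The calcitriol difference was 0.23 in wild type (SE 0.29, 95% interval -0.40 to 0.86, limma adjusted p = 1.00) and -0.07 in knockout (SE 0.29, 95% interval -0.70 to 0.57, adjusted p = 1.00). A change of its RNA beyond 1.82-fold upward in wild type lies outside the interval.

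Nr0b2, the FXR target that encodes the repressor SHP, was at the edge of detection. It was well above background on 6 of 12 arrays, 2 each in wild-type calcitriol and knockout calcitriol and 1 each in wild-type vehicle and knockout vehicle, and so did not enter the test. Its levels were -6.53, -5.35 and -4.78 in wild type with calcitriol, against -6.14, -2.49 and -4.64 with vehicle. The knockout arrays had -5.88, -5.40 and -4.58 with calcitriol, against -6.30, -6.97 and -5.60 with vehicle. The 1 high value belongs to the vehicle array of wild-type mouse 2, the array with the raised low signals, and their part in it was not tested. In a fit without the filter on dim probes the difference was -1.13 in wild type (SE 0.83, adjusted p = 0.548), or -0.16 without that array, and 1.00 in knockout (SE 0.83, adjusted p = 1.00).

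Gpbar1, the gene of the membrane receptor TGR5, was above background on all 12 arrays. Its levels were -1.98, -1.66 and -1.81 in wild type with calcitriol, against -2.74, -2.10 and -1.68 with vehicle. Knockout arrays gave -1.62, -1.66 and -2.37 with calcitriol, against -2.86, -2.37 and -1.75 with vehicle. Mice 1 and 2 were higher with calcitriol and mouse 3 lower in both genotypes. The mean difference was 0.36 in wild type (SE 0.34, 95% interval -0.38 to 1.09) and 0.44 in knockout (SE 0.34, 95% interval -0.30 to 1.18), with limma adjusted p of 1.00 and 0.960, so it did not pass in either genotype.

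Among the transport genes, Slc10a2, the apical uptake transporter, was measured well above background in every culture. Its levels were 0.82, 0.85 and 0.63 in wild type with calcitriol, against 1.01, 1.30 and 0.50 with vehicle. The knockout levels were 0.81, 0.82 and -0.25 with calcitriol, against 0.65, 1.35 and -0.06 with vehicle. Calcitriol was lower in 2 of 3 mice of each genotype, and the mean difference was -0.17 in wild type (SE 0.36, 95% interval -0.96 to 0.62) and -0.18 in knockout (SE 0.36, 95% interval -0.98 to 0.61), each at limma adjusted p = 1.00.

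Fabp6, whose promoter holds the 2 IR1 matches shown above, was dim but above background on all 12 arrays. Its levels were -3.51, -2.71 and -3.28 in wild type with calcitriol, against -3.14, -1.74 and -3.02 with vehicle. Levels in knockout were -2.81, -2.23 and -2.68 with calcitriol, against -3.41, -2.39 and -2.27 with vehicle. In wild type the calcitriol array was the lower one in all 3 mice, opposite to Fgf15. The mean difference was -0.53 (SE 0.42, 95% interval -1.44 to 0.38, limma adjusted p = 1.00) and was -0.09 when the vehicle array of mouse 2 was left out, the end nearest 0 of a range from -0.78 over each wild-type array left out in turn. In knockout it was 0.11 (SE 0.42, adjusted p = 1.00).

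Slc51b, the β subunit of the exporter and the other gene with an IR1 match, had levels of -2.996, -3.34 and -2.08 in wild type with calcitriol, against -2.75, -2.26 and -1.90 with vehicle. Among knockout arrays they were -2.51, -2.66 and -2.09 with calcitriol, against -3.09, -2.44 and -2.01 with vehicle. It too was lower with calcitriol in 3 of 3 wild-type mice, by 0.50 on average (SE 0.37, 95% interval -1.32 to 0.31, limma adjusted p = 1.00), while knockout differed by 0.09 (SE 0.37, adjusted p = 1.00). The wild-type difference was -0.48 with the vehicle array of mouse 2 left out and -0.23 with the calcitriol array of mouse 2 left out, and without mouse 2 altogether it was -0.21.

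Slc51a, the α subunit, was the dimmest tested gene of the set and was above background on 11 of 12 arrays. Its levels were -5.36, -4.69 and -4.53 in wild type with calcitriol, against -4.61, -2.83 and -4.07 with vehicle. For knockout the levels were -4.35, -4.38 and -3.91 with calcitriol, against -5.61 (not above background), -3.87 and -3.82 with vehicle. All 3 wild-type mice had the lower level with calcitriol, a mean of -1.02 (SE 0.55, 95% interval -2.23 to 0.19, limma adjusted p = 1.00), or -0.52 without the vehicle array of mouse 2. In knockout the difference was 0.22 (SE 0.55, adjusted p = 1.00).

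Of the 6 tested genes other than Fgf15, 0 were called with calcitriol in wild type by limma and 0 with mouse as a block. Over all 24242 genes, 39 were called without the block (0.161%) and 220 with it (0.908%), and a count of 0 among 6 does not stand apart from these shares. The groups overlapped for all 6, where 8.96% of all genes had groups that did not. None of the 6 had an unadjusted p under 0.05 in either fit, with a lowest of 0.0909 without the block and 0.0557 with it. The upper ends of the 6 intervals in wild type reached at most 1.09, or 2.13-fold. The median of the 6 differences was -0.34, against -0.03 over all genes. Fabp6, Slc51a and Slc51b, which textbooks name as FXR targets alongside Fgf15, were each lower in 3 of 3 wild-type mice, and none of them passed. These are dim genes, and the vehicle array of mouse 2 has raised low signals. Without that array the mean differences of Fabp6 and Slc51a were smaller, while that of Slc51b hardly changed. Slc51b moved more without the calcitriol array of mouse 2. The part of these arrays in the differences was not tested. The share of all genes lower in 3 of 3 wild-type mice is not given here.

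**Figure D2:**
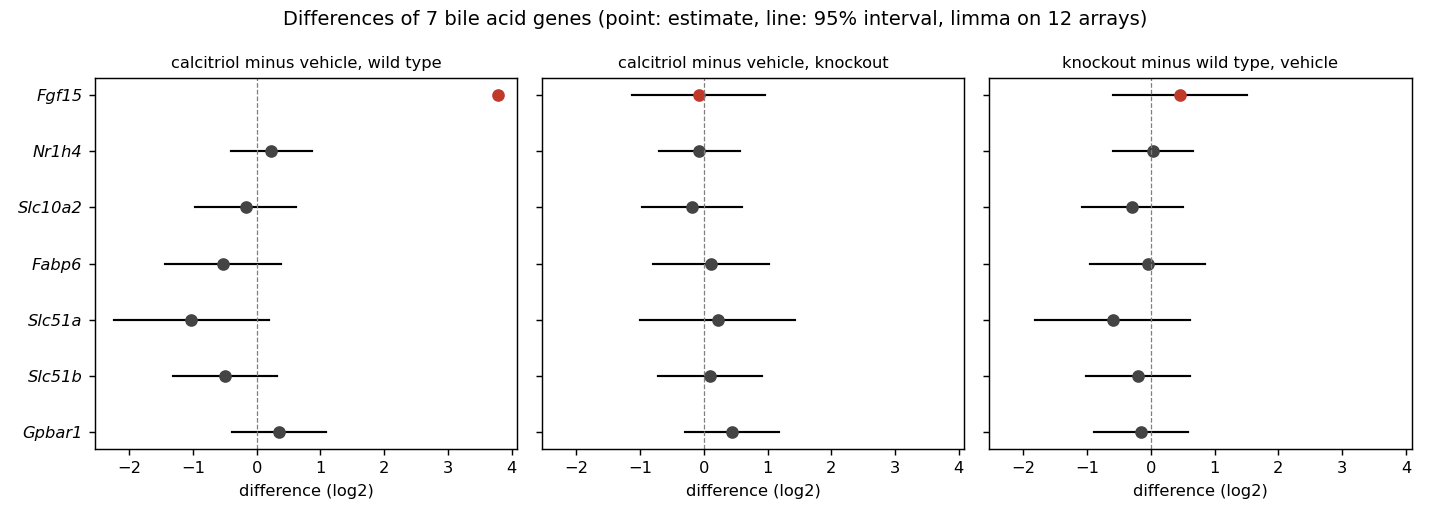
Estimated differences (log2) of the 7 tested bile acid genes for calcitriol minus vehicle in wild type, calcitriol minus vehicle in knockout, and knockout minus wild type in vehicle, with 95% intervals from the fit on 12 arrays. Fgf15 in wild type (3.79) is drawn without an interval because that comparison chose it. Every interval drawn includes 0. The Fgf15 difference in vehicle reuses the wild-type vehicle arrays of that comparison, so its interval is no test.

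The comparisons of genotypes gave 0 calls among these genes as well. The knockout and wild-type arrays overlapped for all 7 genes in vehicle, where 8.18% of all genes had groups without overlap. The calcitriol and vehicle arrays of knockout overlapped for all 7 as well, against 7.47% of all genes without overlap. In vehicle the 7 genes differed by -0.60 to 0.45 between knockout and wild type, where 0.45 was Fgf15, a description. Among the 6 others the lowest limma adjusted p was 0.800. In calcitriol 50 of 24242 genes were called (0.206%), and 127 with the replicate number as a block (0.524%). There the 6 genes other than Fgf15 differed by -0.31 to 0.64, all at adjusted p = 1.00. Slc51a was the 1 gene of the 6 whose groups did not overlap, at -4.38 to -3.91 in knockout with calcitriol against -5.36 to -4.53 in wild type with calcitriol. Groups without overlap occurred for 7.41% of all genes in this comparison. Fabp6 was higher in knockout by 0.59 (SE 0.42, adjusted p = 1.00) and had the lowest unadjusted p with the block (0.0164, adjusted p = 0.404).

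The difference between the calcitriol effects in wild type and in knockout was called for 7 of 24242 genes (0.0289%), and for 58 with mouse as a block (0.239%). None of the 6 was among them. The estimates for wild type minus knockout were -1.24 for Slc51a (SE 0.78), -0.64 for Fabp6 (SE 0.59), -0.60 for Slc51b (SE 0.53), -0.08 for Gpbar1 (SE 0.48), 0.02 for Slc10a2 (SE 0.51) and 0.30 for Nr1h4 (SE 0.41). All stood at limma adjusted p = 1.00. The corresponding value for Fgf15 was 3.87, a description.

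A second pattern ran through the replicate numbers rather than the treatment. Nr1h4 was highest in replicate 3 and lowest in replicate 2 in all 4 groups, and Slc10a2 was highest in replicate 2 and lowest in replicate 3 in all 4. Across all 24242 genes, 7.57% kept the same number highest and the same number lowest in every group. Fgf15 was lowest in replicate 3 in all 4 groups, Fabp6 was lowest in replicate 1 and Slc51b was highest in replicate 3. Vehicle and calcitriol arrays of a number come from the same mouse within a genotype, and between genotypes a number is shared by mice of the same labelled age. The calcitriol minus vehicle differences of Nr1h4 within a mouse had an SD of 0.05 in knockout, against an SD of 0.41 between the knockout vehicle arrays. In wild type the SD of these differences was 0.21, against 0.34 between the vehicle arrays.

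**Figure D3:**
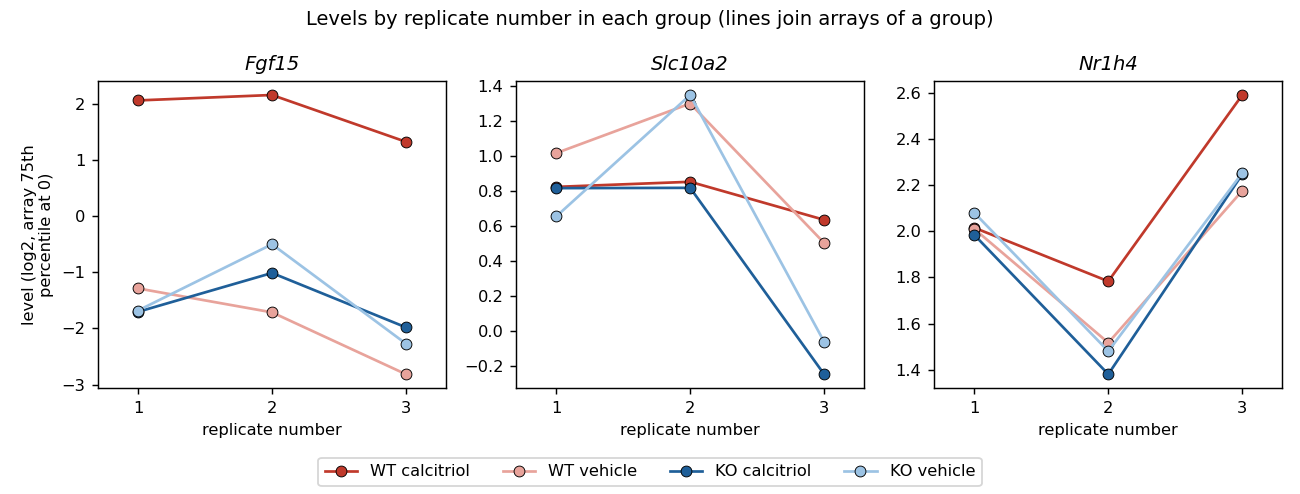
Levels (log2, the array's 75th percentile at 0) of Fgf15, Slc10a2 and Nr1h4 against the replicate number, with a line for each of the 4 groups. Slc10a2 peaks at replicate 2 and Nr1h4 dips there in every group, while Fgf15 is lowest at replicate 3 in every group and is raised as a whole in wild type with calcitriol.

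FGF receptors, their co-receptors and the other hormones of the endocrine FGF family formed a list of 9, of which 8 were on the array and 7 were tested. None was called with calcitriol in wild type or knockout, with or without the block, and the list's median differences were 0.39 and 0.03, against -0.03 and 0.04 over all genes. Fgfr4, the main FGF15 receptor, averaged 2.28 ± 0.25 in wild type with calcitriol and 2.70 ± 0.21 with vehicle (SD, n = 3 each), a difference of -0.41 (SE 0.20, limma adjusted p = 1.00, and 0.108 with mouse as a block). Klb, which encodes β-Klotho, was above background on 6 of 12 arrays, and Kl, the co-receptor gene for FGF23, on 1.

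The enzymes of bile acid synthesis, a pathway of the liver, gave 9 tested genes of 15 on the array. Cyp7a1, Cyp7b1 and Cyp8b1, which encode hydroxylases of that pathway, were above background on none of the 12 arrays. None of the 9 was called in any of the 5 comparisons, and the median calcitriol difference was -0.05 in wild type and -0.01 in knockout. Hsd3b7, the steroid dehydrogenase of the pathway, differed by 0.08 in wild type (SE 0.11, adjusted p = 1.00).

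Other bile acid and sterol transporters gave 12 tested genes of 18, and none was called in any comparison. Their median difference with calcitriol was 0.03 in wild type and -0.06 in knockout. Abcc3, a basolateral exporter of conjugates, differed by -0.03 in wild type (SE 0.17, adjusted p = 1.00). Abcg8, Slco1b2 and Slco2b1 were above background on no array.

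Conjugation and detoxification genes gave 7 tested of 8 on the array. With calcitriol in wild type 0 were called without the block and 1 with it, where 0.908% of all genes were called with it. Ugt2b34, a glucuronosyltransferase gene, averaged 5.06 ± 0.49 in wild type with calcitriol and 4.28 ± 0.60 with vehicle (SD, n = 3 each). The difference of 0.78 (SE 0.37) passed with mouse as a block (limma adjusted p = 0.0109) and did not pass without it (1.00). The blocked call ended without mouse 2 (0.146), and with slide as a block the adjusted p was 1.00.

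All 25 nuclear receptors and partners on the list were tested, and with calcitriol in wild type 0 were called without the block and 1 with it. Over all genes 0.908% were called with the block. Ppard, a receptor for fatty acids, averaged 3.66 ± 0.09 in wild type with calcitriol and 3.18 ± 0.16 with vehicle (SD, n = 3 each), a difference of 0.49 (SE 0.13). Its limma adjusted p was 0.0442 with mouse as a block and 0.507 without, and the blocked call ended without mouse 1 or 2 (0.0849 and 0.356). Hnf4a, a master regulator of intestinal and hepatic genes, differed by -0.09 (SE 0.12, adjusted p = 1.00). The list's median was -0.03.

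The markers of small intestinal enterocytes, the cells that make most Fgf15 in the body, held 13 tested genes. In wild type 0 were called without the block and 3 were higher with it, where 0.908% of all genes were called with the block. Cubn, an endocytic receptor, differed by 1.74 (SE 0.51, limma adjusted p = 0.641, and 0.000316 with mouse as a block). Its blocked call held without any 1 mouse, with a highest adjusted p of 0.0186, though each such fit had only 2 mice. Alpi, the intestinal alkaline phosphatase, differed by 1.23 (SE 0.30), at an adjusted p of 0.305 unblocked and 0.00856 blocked. Mep1a, a brush border protease, differed by 0.91 (SE 0.40), at 1.00 unblocked and 0.00351 blocked. Without mouse 2 the blocked values were 0.132 for Alpi and 0.0973 for Mep1a. With slide as a block these 3 genes stood at adjusted p = 1.00. The same 3 genes were lower with the block in knockout than in wild type under calcitriol, where 0.524% of all genes were called. There the call of Mep1a ended without replicate 1 (0.127) and that of Alpi without replicate 1 or 2 (0.123 and 0.111). The difference of calcitriol effects passed with the block for Cubn (1.73, adjusted p = 0.00392) and Mep1a (0.93, adjusted p = 0.0171), against 0.239% of all genes, and both calls ended without replicate 1 or 2. The list's median in wild type was -0.04.

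Levels were also summed, in units of the 75th percentile signal. The 20 small intestinal enterocyte markers came to 18.1 to 29.7 in wild type with calcitriol, against 13.9 to 20.3 with vehicle. In knockout they came to 13.6 to 19.8 with calcitriol, against 17.6 to 19.9 with vehicle. The groups overlapped in both genotypes, but within mice the sum was higher with calcitriol in 3 of 3 wild-type mice and lower in 3 of 3 knockout mice. The 8 stem cell markers on the array summed to 74.6 to 76.0 in wild type with calcitriol, against 83.8 to 92.8 with vehicle, and did not overlap. In wild type 8.96% of single genes had groups without overlap. In knockout they summed to 81.5, 87.5 and 95.5 with calcitriol (mice 1, 2 and 3), against 91.5, 90.7 and 97.8 with vehicle, and overlapped. Within mice the stem cell sum was lower with calcitriol in 3 of 3 mice of each genotype. The median difference of these markers in wild type was -0.38, while Axin2, Rnf43 and Lrig1 were among those higher on average. Of the 8, 0 were called without the block and 1 with it, where 0.908% of all genes were called with it. That gene was Ascl2 (-0.59, limma adjusted p = 0.0458 with mouse as a block). Its blocked call ended without mouse 1 or 2 (0.126 and 0.407), and with slide as a block the adjusted p was 0.99997.

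Some markers of goblet cells, the mucus-making cells of the gut, were higher with calcitriol in wild type. Of 11 tested, 1 was called without the block, Atoh1 (1.84, SE 0.24, limma adjusted p = 0.00980), and 4 with mouse as a block, Atoh1, Spink4, Tff3 and Fcgbp. Over all genes the shares called were 0.161% without the block and 0.908% with it. The blocked calls of Spink4, Tff3 and Fcgbp ended without mouse 2 (0.115, 0.226 and 0.240). That of Atoh1 held without any 1 mouse, though each such fit had only 2 mice. With slide as a block Atoh1 stood at an adjusted p of 0.0630 and Fcgbp at 0.99997. The list's median was 0.49 in wild type and 0.01 in knockout, against -0.03 and 0.04 over all genes. Its summed level was 292.1, 260.4 and 149.9 in wild type with calcitriol (mice 1, 2 and 3), against 226.1, 168.8 and 108.2 with vehicle, so each mouse was higher with calcitriol while the groups overlapped. In knockout it was 145.1 to 218.4 with calcitriol, against 128.3 to 220.4 with vehicle.

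Fibroblast markers were near background, with 3 to 7 of 12 above it on an array and sums of 0.38 to 0.91, and Lum and Pdgfra above background on no array. Of 12 immune markers, 5 were above it on all 12 arrays (Itgam, Cd14, Cd68, Csf1r and Cd3e), with sums of 17.1 to 31.8. Of 6 endothelial markers, 3 were above it on all 12 arrays (Kdr, Vwf and Pecam1), with sums of 4.02 to 8.97. No tested gene of these 3 lists was called with calcitriol in either genotype. Whether these signals come from such cells was not tested. Of 15 markers of enteroendocrine cells, the hormone-making cells of the gut, 13 were tested. With calcitriol in wild type 0 were called without the block and 1 with it, where 0.908% of all genes were called with it. That gene was Neurog3 (1.13, limma adjusted p = 0.00206 with mouse as a block). Its blocked call ended without mouse 2 (0.0519), and with slide as a block the adjusted p was 0.321. The part of a shift in cell types in the level of Fgf15 was not tested, and in bulk cultures more cells that express a gene and more RNA per cell cannot be told apart.

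Genes were also ranked by their likeness to Fgf15 in the pattern over the 12 arrays. The members, Xist, the genes of the Y chromosome and those of an autosome were left out of this ranking. It therefore does not cover all 14904 tested genes with a symbol. Of the 14551 named genes ranked, the 10 with the highest Pearson correlation with Fgf15 had coefficients between 0.919 and 0.968. They were Gnb5 (a G protein subunit), Atoh1 (the secretory fate regulator), Pla2g7 (a phospholipase), Trpv6 (the apical calcium channel), Rnf149, Fut4 (a fucosyltransferase), Ugt2b35 (a glucuronosyltransferase), Cebpd (a transcription factor), Spon2 and Trdmt1. Their calcitriol differences ran between 0.70 and 4.52 in wild type and between -0.21 and 0.37 in knockout. The points share the 4 groups and the mice, so the coefficient mostly records the step in 1 group, and it is given with no test.

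**Figure D4:**
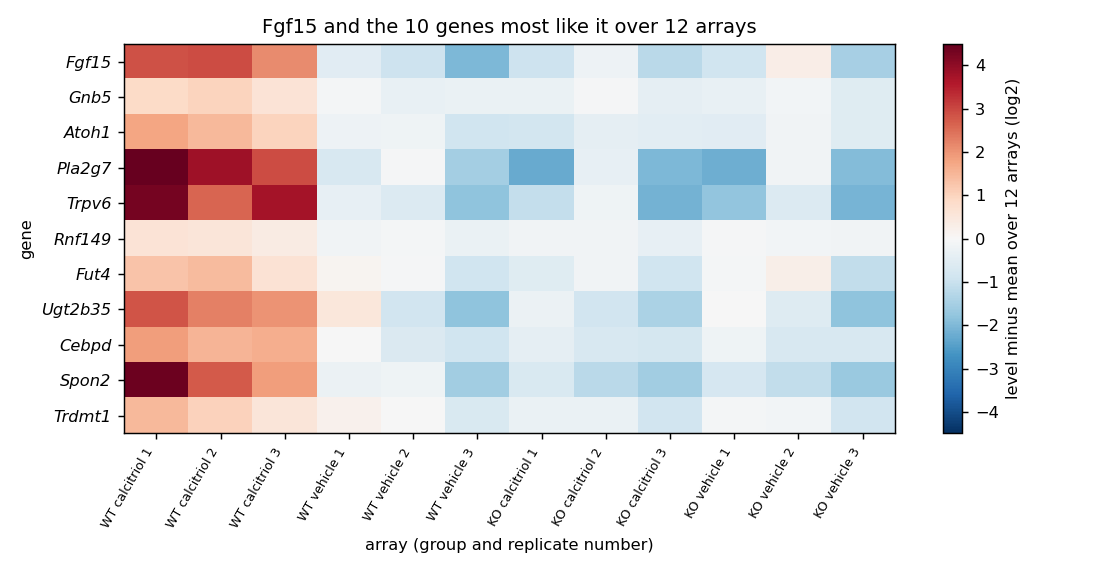
Level of Fgf15 and of the 10 ranked genes most like it, as the difference from each gene's own mean over the 12 arrays (log2, colour), with genes down the page and arrays across it by group and replicate number. The 3 wild-type calcitriol arrays at the left are above the mean in all 11 genes, which were ranked by this likeness.

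The bile acid genes themselves had low or negative coefficients with Fgf15 over the same 12 arrays. They were 0.30 for Slc10a2, 0.19 for Gpbar1, 0.00 for Nr1h4, -0.35 for Fabp6, -0.45 for Slc51a and -0.57 for Slc51b. The highest of them, Slc10a2, would have stood at rank 1861 among the 14551 genes ranked.

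None of the genes next to Fgf15 on its chromosome passed. The 3 tested neighbours on each side in the RefSeq order were Ppfia1, Fadd and Ano1 on one and LTO1, Ccnd1 and Tpcn2 on the other. Their calcitriol differences in wild type lay between -0.17 and 0.51, all at limma adjusted p = 1.00, and 0 of 6 passed with mouse as a block. Ano1, the nearest on one side, differed by 0.21 (SE 0.15) and LTO1, the nearest on the other, by 0.10 (SE 0.14).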

How the data were processed

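RNA of 12 organoid cultures was measured on 1-colour Agilent arrays. The authors extracted each spot's intensity with Feature Extraction 11.5.1.1, per the file headers. Their processed intensity is background-subtracted and detrended and is not normalized between arrays, and the array annotation is on mm9, per the file headers. No statistical method is given in the sources used here.

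Control spots and outlier spots were dropped, log2 intensities were set relative to each array's 75th percentile, and accessions were named through RefSeq (GRCm38.p6). A gene was kept where 1 group had it well above background on its 3 arrays, represented by the probe with the highest mean level, which left 24242 genes. These were tested with limma 3.58.1 (R 4.3.3) in a fit of 4 group means, with 2-sided moderated tests and Benjamini-Hochberg adjustment over all genes at 0.05. The fit was tested on simulated data. The number of arrays limits the precision.

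Same-numbered arrays of a genotype come from 1 mouse, and their deviations from the group means correlated at 0.57, 0.32 and 0.32 in wild type and at 0.25, 0.59 and 0.10 in knockout. Between genotypes the correlations were 0.64, 0.13 and 0.40 in vehicle and 0.41, 0.40 and 0.34 in calcitriol. The blocked fit uses the arrays of the comparison. Other settings were array-median scaling, normexp (offset 50) on the deposited median intensity, other filters, slide, and leaving out arrays or mice.

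The members and lists were chosen with earlier results of these data known. Genes named were the 8 members, called or bright members of each list, the 10 ranked genes most like Fgf15 and its 3 neighbours on each side.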

Additional observations from a re-analysis of the deposited data

Results flagged for a closer look

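The measured differences of Nr1h4 and Nr0b2 had one sign in all 3 wild-type mice and the other in all 3 knockout mice. These members were picked out by this pattern, and the share of all genes that show it is not given here. For Nr1h4 the differences were 0.01, 0.27 and 0.42 in wild type and -0.10, -0.10 and -0.01 in knockout, so the wild-type effect exceeded the knockout effect by 0.30. Some of these are close to 0, and limma's test of the difference gave an adjusted p of 1.00, or 0.622 with mouse as a block. For Nr0b2 the differences were -0.39, -2.86 and -0.14 in wild type and 0.42, 1.57 and 1.01 in knockout, and the effects differed by -2.13. Only 2 of the 6 mice had it above background on both arrays, so the direction in the other mice cannot be read. It stood at an adjusted p of 0.563 in the fit without the filter on dim probes; the difference was not tested in the filtered fit. The vehicle array of wild-type mouse 2, which has raised low signals, gives the value of -2.86. Without that array the mean difference in wild type was -0.16 and the effects differed by -1.16.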

How the results depend on the processing

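Over 23 other settings the 6 tested genes other than Fgf15 gave 685 values for 30 differences. None was called, the lowest adjusted p was 0.162, and 87 values changed sign. With the replicate block the count called among them was 0 in each of the 5 comparisons, as without it. Fgf15 in wild type lay between 3.35 and 4.66, its genotype difference in calcitriol between -3.69 and -3.12 and the difference of its effects between 3.38 and 4.63, with no test. Fgf15 in knockout was 0.59 with slide as a block and 0.91 on the largest slide alone, where slide and mouse cannot be told apart. It was -0.47 to 0.41 with 1 array or replicate number left out. It was positive without the knockout calcitriol array of replicate 3 (0.13), without the knockout vehicle array of replicate 2 (0.41) and without replicate 2 (0.13). Its genotype difference in vehicle is a description. It was 1.21 with median scaling, where the median of all genes is 0.70, and -0.10 with slide as a block. With 1 array or number left out it was -0.037 to 0.88, where -0.037 is without the knockout vehicle array of replicate 2. The cause was not tested, and none of the Fgf15 values in knockout passed.

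Scaling to the array median moved the median of all genes in wild type from -0.03 to 0.44, where Nr1h4 stood at 0.70, Slc10a2 at 0.30 and Fabp6 at -0.06. The count over all genes in wild type was 39, and it was 220 with mouse as a block, 70 with median scaling, 60 with normexp, 20 on the 6 arrays alone, 6 with slide as a block and 3 on the largest slide. It was 13 to 38 with 1 array left out (13 without wild-type calcitriol replicate 2) and 13, 1 and 84 without replicate 1, 2 or 3. The difference of effects gave 7, and 58, 21, 18, 7, 1 and 2 in the same order, and 6, 1 and 2 without replicate 1, 2 or 3. In knockout the count was 0, and 149 without replicate 3. Blocked fits with 1 mouse left out, and Nr0b2 without 1 array, were added after seeing the data. Such a blocked fit leaves 2 mice of a genotype, so its p rests mostly on the spread pooled over all genes. Low signal limits Nr0b2 and Slc51a.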

Other observations

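Slc10a1, known as the bile acid uptake transporter of the liver, gave a bright signal in every colonic culture. Its level averaged 8.71 ± 0.05 in wild type with calcitriol and 8.63 ± 0.21 with vehicle, and 8.80 ± 0.19 in knockout with calcitriol and 8.69 ± 0.09 with vehicle (SD, n = 3 each). The calcitriol difference was 0.09 in wild type (SE 0.12) and 0.11 in knockout (SE 0.12), each at limma adjusted p = 1.00. Fgf23, known as a phosphate hormone of bone, was also above background on all 12 arrays, with 3.20 ± 0.11 in wild type with calcitriol and 2.70 ± 0.63 with vehicle, a difference of 0.50 (SE 0.30, adjusted p = 1.00). Its level in knockout was 3.13 ± 0.55 with calcitriol and 2.49 ± 0.16 with vehicle, a difference of 0.63 (SE 0.30, adjusted p = 0.841). Each rests on 1 probe named through its accession, and whether other transcripts bind these probes was not tested.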
